A study of Mus musculus with 6 samples.

Results

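Transcripts of mitosis and of the G2 phase that precedes it were examined in mouse LSK cells labelled control or SRF-null, after the transcription factor SRF. LSK cells are the lineage-negative, Sca1-positive, c-Kit-positive fraction of bone marrow that holds blood stem cells and multipotent progenitors. The set was a list of 40 genes, and a gene was measured where the array annotation named it alone for at least 1 probe set, a probe set being a group of probes that reads 1 transcript. By that rule 39 genes with 86 probe sets were found among 18193 genes with 34945 probe sets. No probe set named the cyclin gene Ccnb1 alone, so it has no value here. Each gene was represented by its probe set with the highest mean over all arrays, and the others were examined separately.

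A cell enters mitosis when cyclins A and B activate the kinase CDK1, after which spindle motors, kinetochores and the chromosomal passenger complex move the chromosomes and the anaphase-promoting complex ends the process. Most of these genes are switched on late in the cell cycle, and their transcripts fall to low levels in resting cells. Many blood stem cells rest outside the cycle, whereas multipotent progenitors in the same LSK fraction divide often, so the level of these transcripts in bulk LSK RNA reflects a mixture. In such bulk samples fewer dividing cells and less RNA per dividing cell cannot be told apart.

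The 3 control arrays came from Srf+/+;Mx1-Cre mice and the 3 SRF-null arrays from Srf flx/flx;Mx1-Cre mice, all C57BL/6. Mx1-Cre is an interferon-inducible recombinase that is not restricted to blood cells, and controls carried it too. Both genotypes were given pIpC, a double-stranded RNA that induces interferon, as 3 injections of 200 µg spaced 2 days apart from an age of 6 weeks, and cells were sorted 35 days after the last injection from pooled animals. Each array was hybridised with RNA amplified from 30 ng, and no source used here tells how many animals a pool held, so a p-value reflects the spread between these pools alone.

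The arrays had median signals of 200.5 to 292.1. Values below are quantile normalized log2(signal + 16), means are ± SD over n = 3 arrays, and differences are SRF-null minus control with the limma standard error (SE). Srf itself was at 13.03 ± 0.02 in control and 12.60 ± 0.19 in SRF-null cells, without overlap (difference −0.42, SE 0.13, limma adjusted p = 0.771). This was read by the brighter of its 2 probe sets, and whether that probe set lies in the deleted part is unknown here. All 8 measured LSK markers, Kit, Cd34 and Flt3 among them, were above a signal of 16 on every array, and the Sca1 gene Ly6a had no probe set of its own. Of 43 measured markers of other lineages, 3 were below that signal on all arrays (Hba-a1, Pax5 and Cd3g). Control replicate 2 lacked Y-linked transcripts (Kdm5d 4.0, against 10.54 to 11.98 elsewhere) and SRF-null replicate 1 lacked Xist (5.03, against 15.13 to 16.24), so these arrays carried transcripts of 1 sex and the other 4 of both.

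Promoters of mitotic genes are known for CCAAT boxes, which bind the factor NF-Y, and for a cell cycle homology region with the core TTTGAA or TTTAAA, through which the MuvB complexes keep them silent in resting cells. Both were searched on either strand in the 250 bases before the RefSeq start of 34 listed genes that had an entry, and overlapping matches were counted separately. CCAAT was found in 25 of these 34 genes (73.5%), against 37.5% of all 27025 genes with an entry and 39.4% of those measured on the array. At least 2 CCAAT matches occurred in 16 of the 34 (47.1%), against 11.5% of all genes. TTTGAA or TTTAAA was found in 17 of 34 (50%, against 28.1%), and CCAAT together with either core in 15 of 34 (44.1%, against 10.1%). The CArG box, the motif that SRF itself binds, was found in 0 of 34, and in 1.62% of all genes. These are matches of letters and do not show binding.

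The last 150 bases before the start are printed for the members of lowest p that had 1 promoter sequence, down to Kif11. Mad2l1 met this rule too but is not printed, and it showed no match in these bases. Sequences run 5′ to 3′ on the gene's strand in RefSeq build GRCm38.p6, with matches in capitals. Hmmr at chr11:40733438-40733587 (minus strand), Ccnb2 at chr9:70421555-70421704 (minus strand) and Cenpa at chr5:30666736-30666885 (plus strand) are among the members with the lowest p, Top2a at chr11:99024190-99024339 (minus strand) and Kif11 at chr19:37376232-37376381 (plus strand) show CCAAT with the TTTGAA core, and Nuf2 at chr1:169531465-169531614 (minus strand) and Ccnb1ip1 at chr14:50795729-50795878 (minus strand), the members with the 2 lowest p, show neither.
Hmmr: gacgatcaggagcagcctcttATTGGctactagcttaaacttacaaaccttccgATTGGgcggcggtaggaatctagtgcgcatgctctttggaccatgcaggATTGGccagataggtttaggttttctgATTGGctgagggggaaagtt
Ccnb2: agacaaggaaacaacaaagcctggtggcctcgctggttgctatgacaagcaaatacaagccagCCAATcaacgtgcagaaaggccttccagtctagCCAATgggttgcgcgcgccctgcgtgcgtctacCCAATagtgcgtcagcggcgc
Cenpa: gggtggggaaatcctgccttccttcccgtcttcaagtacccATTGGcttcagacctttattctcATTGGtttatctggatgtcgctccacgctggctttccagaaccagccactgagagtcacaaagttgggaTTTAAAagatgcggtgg
Top2a: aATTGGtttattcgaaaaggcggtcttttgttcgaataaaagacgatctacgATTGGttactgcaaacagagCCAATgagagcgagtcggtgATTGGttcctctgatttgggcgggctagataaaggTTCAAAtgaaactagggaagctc
Kif11: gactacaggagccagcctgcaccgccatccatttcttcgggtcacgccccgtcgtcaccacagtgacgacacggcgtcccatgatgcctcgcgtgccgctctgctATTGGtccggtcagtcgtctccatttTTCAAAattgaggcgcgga
Nuf2: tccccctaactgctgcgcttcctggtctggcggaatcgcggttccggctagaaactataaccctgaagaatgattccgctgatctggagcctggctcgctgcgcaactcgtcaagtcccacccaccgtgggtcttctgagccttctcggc
Ccnb1ip1: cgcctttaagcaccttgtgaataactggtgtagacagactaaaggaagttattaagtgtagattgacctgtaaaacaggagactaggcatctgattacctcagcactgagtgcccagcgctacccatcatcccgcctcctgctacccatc
In these windows Hmmr and Top2a each held 4 CCAAT matches, Ccnb2 held 3, Cenpa 2 and Kif11 1. The core lay close to the start in 3 of them, with its first base 17 bases before it in Cenpa (TTTAAA), 23 in Top2a and 19 in Kif11 (both TTTGAA read on the other strand).

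Transcripts of mitotic genes were higher in SRF-null cells for 38 of the 39 members, by small amounts that did not pass a test gene by gene. The median difference was 0.27 on the log2 scale, against −0.01 over all 18193 genes, and 48.6% of all genes were higher at any size. The 38 members ranged from 0.08 for Mki67, the proliferation marker, to 0.79 for the kinetochore gene Nuf2. The exception was Ccnb1ip1 (−4.71), whose product is known from crossing over in meiosis. By limma, 0 of 39 members and 0 of 18193 genes (0%) passed an adjusted p of 0.05. At an unadjusted p under 0.05 there was 1 member higher (Nuf2, where 2.91% of all genes were higher) and 1 lower (Ccnb1ip1, where 2.83% were lower). Neither held throughout. By limma over all genes, the unadjusted p of Nuf2 was 0.0883 with median centring. That of Ccnb1ip1 was 0.0595 with an offset of 1, 0.0614 with one of 64 and 0.0721 with a trended and robust variance. Both genes were also above 0.05 without control replicate 1, without SRF-null replicate 2 and without SRF-null replicate 3. Members are not replicates of a condition, since they were read on the same 6 arrays. They were also chosen with earlier results of these data known, so the count of 38 carries no p.

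**Figure D1:**
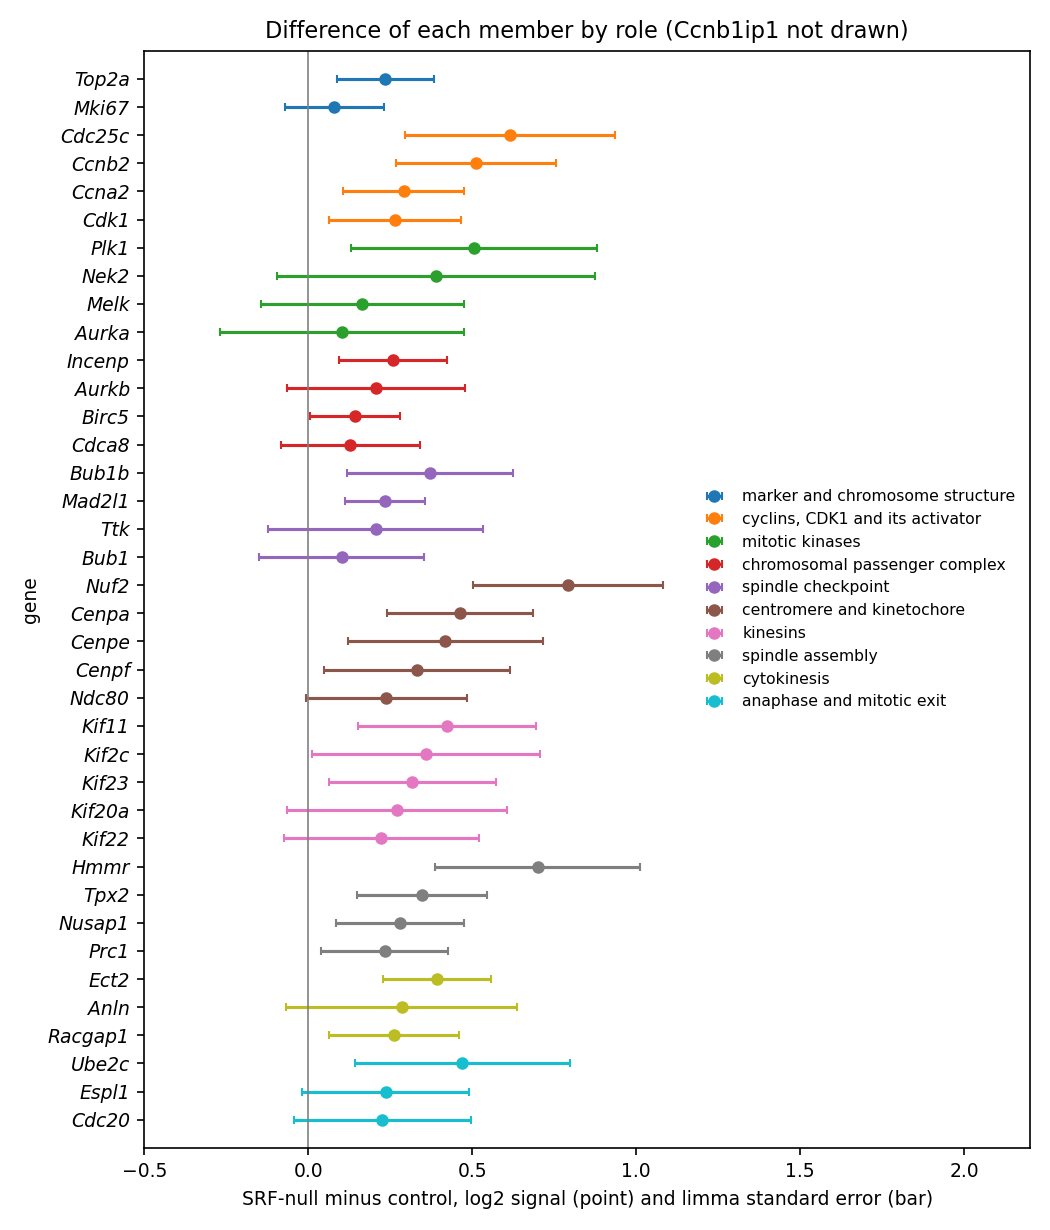
SRF-null minus control difference in log2 signal (x axis) for 38 members (y axis), coloured by role, with points for the limma estimate and bars for its standard error. All points lie between 0.08 (Mki67) and 0.79 (Nuf2), and Ccnb1ip1 (−4.71) is not drawn.

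The 3 members whose genotypes did not overlap were Nuf2, Ect2 and Mad2l1, all higher in SRF-null cells (3 of 39, or 7.69%, against 5.14% of all genes). None was lower without overlap, against 5.45% of all genes. Pairing by replicate number is not in the labels and was taken from these data. Over the members alone, arrays of equal number correlated by 0.19, −0.14 and −0.04. Such a correlation over genes does not see a shift that all members share, so it cannot tell whether the members are paired. Results by pair are description only. With the replicate number as a block, 5 members were higher at an unadjusted limma p under 0.05, against 3.89% of all genes. They were Nuf2, Ube2c, Hmmr, Cenpa and Cdc25c, and the limma adjusted p of these in that fit was 0.504 or more. Within number pairs 21 of 39 members were higher in SRF-null cells in every pair, against 14.0% of all genes, and 0 were lower in every pair, against 16.1%.

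Among genes of the centromere and kinetochore, the structure that ties chromosomes to the spindle, all 5 members were higher, with a median of 0.42. Nuf2, a subunit of the NDC80 complex that grips microtubules, was at 12.65, 13.54 and 13.28 on control replicates 1 to 3 and at 13.65, 13.84 and 14.35 on SRF-null replicates 1 to 3. All SRF-null arrays lay above all control arrays, by the narrowest margin between control replicate 2 and SRF-null replicate 1. The difference was 0.79 (SE 0.29, 95% interval 0.09 to 1.5, 1.73-fold, limma adjusted p = 0.825). Its complex partner Ndc80 differed by 0.24 (SE 0.25). Cenpa, the histone variant that marks centromeres, was at 13.81, 13.46 and 14.25 in control and 14.31, 14.14 and 14.45 in SRF-null cells. Only control replicate 3 reached the SRF-null values, and the difference was 0.46 (SE 0.22, limma adjusted p = 0.891). The kinetochore motor gene Cenpe (0.42, SE 0.30) and Cenpf (0.33, SE 0.28) had their highest value on control replicate 3.

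In the cyclin group, which drives entry into mitosis, all 4 measured members were higher, with a median of 0.40. Ccnb2, a B-type cyclin, was at 14.51, 14.41 and 15.27 in control and 15.22, 15.22 and 15.28 in SRF-null cells. The SRF-null arrays were nearly equal, and control replicate 3 matched them while the other controls were lower. The difference was 0.51 (SE 0.24, 1.43-fold, limma adjusted p = 0.887). Cdc25c, the phosphatase that activates CDK1, was at 12.02, 12.11 and 13.11 against 13.11, 12.75 and 13.21, again with control replicate 3 inside the SRF-null range (difference 0.61, SE 0.32, limma adjusted p = 0.903). Ccna2, the cyclin A gene, was at 15.25, 15.52 and 15.86 against 15.76, 15.76 and 15.99 (difference 0.29, SE 0.19, limma adjusted p = 0.946). Its 95% interval ran from −0.16 to 0.74. Cdk1, the kinase itself, differed by 0.26 (SE 0.20).

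Spindle assembly genes were all higher, 4 of 4, with a median of 0.31. Hmmr, which helps focus spindle poles and is also known as a hyaluronan receptor, was at 13.43, 13.77 and 14.62 in control and 14.46, 14.67 and 14.78 in SRF-null cells. Control replicate 3 lay between SRF-null replicates 1 and 2, and the other controls were lower than all SRF-null arrays (difference 0.70, SE 0.31, 95% interval −0.06 to 1.46, 1.62-fold, limma adjusted p = 0.874). Tpx2, an activator of Aurora A on the spindle, was at 15.10, 14.93 and 15.58 against 15.42, 15.52 and 15.71 (difference 0.35, SE 0.20, limma adjusted p = 0.933). The microtubule-binding genes Nusap1 (0.28, SE 0.19) and Prc1 (0.23, SE 0.19) had 95% intervals that spanned 0, and both were highest on control replicate 3.

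**Figure D2:**
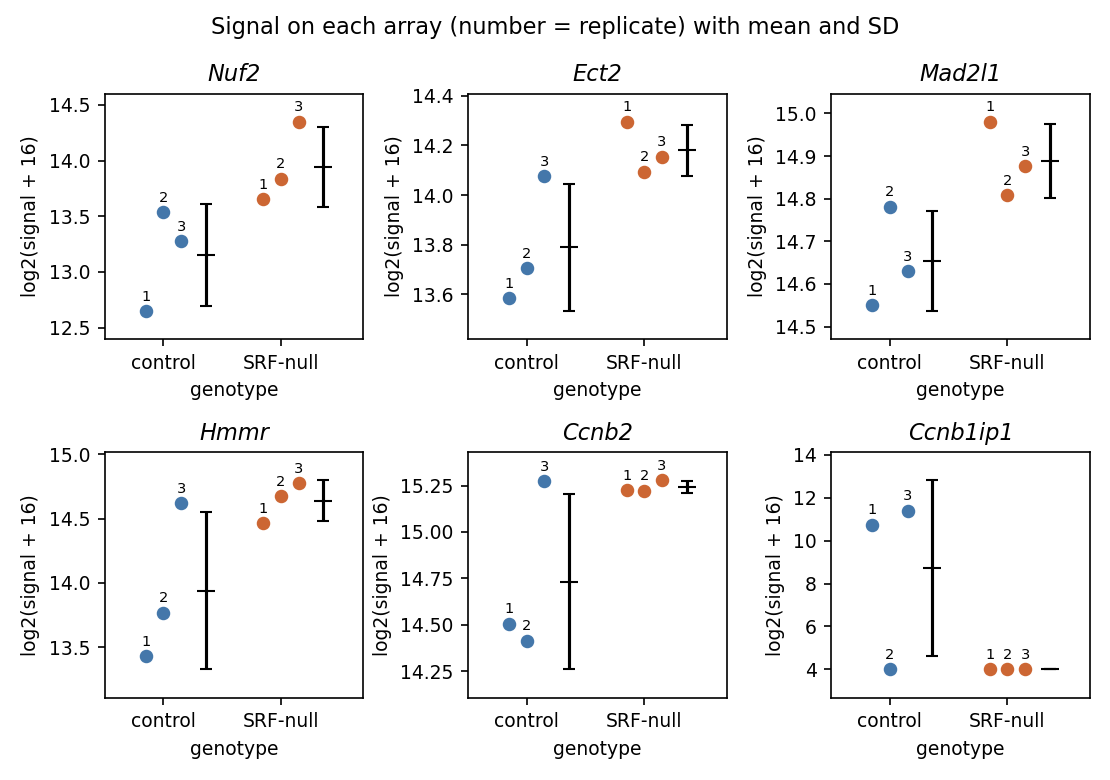
Quantile normalized log2(signal + 16) (y axis) on each control and SRF-null array (x axis, replicate numbers above the points) for 6 members, with bars for the mean ± SD over n = 3. Nuf2, Ect2 and Mad2l1 do not overlap between genotypes, control replicate 3 reaches the SRF-null range in Hmmr and Ccnb2, and Ccnb1ip1 is above the floor of 4.0 on control replicates 1 and 3 only.

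In cytokinesis, the final split of the cell, all 3 members were higher. Ect2, the exchange factor that activates RhoA at the division plane, was at 13.58, 13.70 and 14.08 in control and 14.30, 14.09 and 14.15 in SRF-null cells. The genotypes did not overlap, but control replicate 3 and SRF-null replicate 2 almost met (difference 0.39, SE 0.16, 95% interval −0.01 to 0.79, limma adjusted p = 0.858). Racgap1, the centralspindlin subunit that recruits Ect2, differed by 0.26 (SE 0.20), and the scaffold gene Anln, which links actin and septins to the contractile ring, by 0.28 (SE 0.35).

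Spindle checkpoint genes, which delay anaphase until all chromosomes are attached, were higher in 4 of 4 cases, with a median of 0.22. Mad2l1, which encodes the checkpoint inhibitor MAD2, was at 14.55, 14.78 and 14.63 in control and 14.98, 14.81 and 14.88 in SRF-null cells. The genotypes did not overlap, and the gene had a smaller spread than most members (SD 0.12 and 0.09). Its difference was small, at 0.23 (SE 0.12, 1.18-fold, limma adjusted p = 0.903). The checkpoint kinase genes Bub1b (0.37, SE 0.25), Ttk (0.21, SE 0.33) and Bub1 (0.10, SE 0.25) overlapped between genotypes, and Ttk was lowest on SRF-null replicate 2.

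The chromosomal passenger complex, which corrects faulty attachments through Aurora B, had 4 of 4 members higher by 0.13 to 0.26. Incenp, its scaffold, was at 15.78, 15.88 and 16.28 in control and 16.25, 16.33 and 16.13 in SRF-null cells. It was highest on SRF-null replicate 2, unlike any other member (difference 0.26, SE 0.17, limma adjusted p = 0.946). The kinase gene Aurkb differed by 0.21 (SE 0.27), the survivin gene Birc5 by 0.14 (SE 0.14) and Cdca8 by 0.13 (SE 0.21).

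Top2a, which encodes the topoisomerase that untangles chromosomes, was at 16.44, 16.38 and 16.76 in control and 16.81, 16.63 and 16.85 in SRF-null cells. Both low values were controls, and control replicate 3 lay among the SRF-null values (difference 0.23, SE 0.15, limma adjusted p = 0.946). Mki67 overlapped throughout, at 16.49, 16.25 and 16.66 against 16.66, 16.43 and 16.54. Its difference of 0.08 had a 95% interval of −0.29 to 0.45. It turned to −0.092 without both arrays of 1 sex.

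The remaining roles showed the same direction with wide errors. All 4 other mitotic kinases were higher, from 0.10 (SE 0.37) for Aurka, the Aurora A gene, and 0.16 (SE 0.31) for Melk to 0.39 (SE 0.49) for Nek2 and 0.50 (SE 0.37) for Plk1, the polo-like kinase. Aurka turned to −0.15 when the mean of all its probe sets was used. The 5 kinesins, motors that build and move the spindle, differed by 0.22 to 0.42, with the bipolar spindle motor Kif11 at the top (SE 0.27) and the chromosome-arm motor Kif22 at the bottom (SE 0.30). Between them lay Kif2c (0.36, SE 0.35), which takes microtubules apart at centromeres, and the cytokinesis motors Kif23 (0.32, SE 0.26) and Kif20a (0.27, SE 0.34). Of the genes that end mitosis, Ube2c, which supplies ubiquitin to the anaphase-promoting complex, was at 14.83, 14.48 and 15.44 against 15.44, 14.90 and 15.82 (difference 0.47, SE 0.33). It was higher in every number pair, although the groups overlapped. Espl1, the separase gene, differed by 0.24 (SE 0.25) and Cdc20, the activator of that complex, by 0.23 (SE 0.27).

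Ccnb1ip1 was set apart from all other members by a signal that was present on 2 arrays only. Before normalization its signal was 1885 on control replicate 1 and 2573 on control replicate 3. It was 0.000106 on control replicate 2 and at most 0.000931 on the SRF-null arrays, which is effectively 0. On the normalized scale this gave 10.74, 4.0 and 11.39 in control and 4.0 on every SRF-null array, where 4.0 is the floor set by the offset of 16. The genotypes overlapped at the floor through control replicate 2. The fitted difference of −4.71 (SE 1.91, limma adjusted p = 0.858) depends on the offset and moved to −7.37 when 1 was added to the signals and to −3.40 when 64 was added. Without control replicate 2, the array without Y-linked transcripts, the difference was −7.07 with a limma adjusted p of 0.00907, the lowest over all alternatives. That array was the only control at the floor, so leaving it out itself separates the genotypes, and this p is no support for a difference. Without both arrays of 1 sex, which drops the same control, the difference was −7.05 and the limma adjusted p was 0.200. The gene had 1 probe set, so no second reading was at hand.

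The members varied between arrays within a genotype, and they did so largely together. Relative to each gene's mean over the 6 arrays, the members' median lay at −0.39 on control replicate 1, −0.32 on control replicate 2 and 0.32 on control replicate 3. On the SRF-null arrays it lay at 0.15, −0.05 and 0.36 for replicates 1 to 3. Control replicates 1 and 2 were low, control replicate 3 and SRF-null replicate 3 were high, and the other SRF-null arrays lay between. The same medians over all genes stayed between −0.07 and 0.04. The log2 signal of 3′ over 5′ control probe sets, which rises as RNA is shortened, varied too. For Actb it was 1.18, 1.45 and 1.35 on control replicates 1 to 3 and 1.00, 1.51 and 0.93 on SRF-null replicates 1 to 3. For Gapdh it was 0.97, 1.20 and 0.99 against 0.95, 1.16 and 0.67. SRF-null replicate 3, the array highest in the members, had the lowest values, and SRF-null replicate 2 and control replicate 2 had the highest Actb values. Control replicate 1, low in the members, had a lower Actb value (1.18) than control replicate 3 (1.35), which was high in them. The part of RNA quality in the mitotic signal was not tested.

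**Figure D3:**
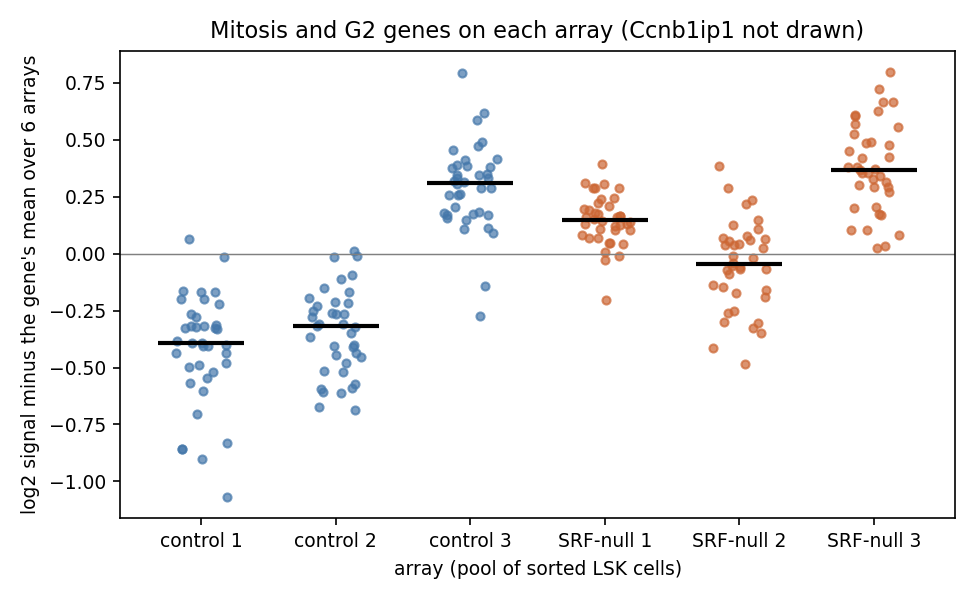
Log2 signal minus each gene's mean over 6 arrays (y axis) for 38 members on each array (x axis), with 1 point per gene and a black line at the median; points are shifted sideways at random for legibility. The medians are −0.39, −0.32 and 0.31 on the control arrays and 0.15, −0.05 and 0.37 on the SRF-null arrays, with Ccnb1ip1 left out.

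SRF-null replicate 3 was the highest array for 23 of 39 members and control replicate 3 for 12, against 16.2% and 19.3% of all genes. Control replicate 1 was the lowest for 21 members and control replicate 2 for 15, against 25.3% and 12.5% of all genes. Control arrays differed from each other more than SRF-null arrays did. The median SD of a member was 0.43 in control and 0.20 in SRF-null cells, against 0.22 and 0.21 over all genes, and 34 of 39 members had the larger SD in control cells, against 51.8% of all genes. Within number pairs the members' median difference was 0.51 in pair 1, 0.25 in pair 2 and 0.08 in pair 3, with 38, 34 and 25 of 39 members higher in the SRF-null array.

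Leaving out 1 array changed the size of the difference. Without control replicate 3 the median difference was 0.47, with Hmmr at 1.04, Cdc25c at 0.96 and Ccnb2 at 0.78. This array was the only control high in the members, so leaving it out itself widens the difference. In that fit 19 members had an unadjusted limma p under 0.05, against 5.16% of all genes. All 19 were higher, against 3.14% of all genes, and this count is no support for a difference. Without control replicate 1 the median was 0.17, and 0 members had such a p, against 8.32% of all genes. The same count was 0 in the fits that left out the second (5.22% of all genes) or the third SRF-null array (6.40%), 1 in the fit that left out the first (4.99%) and 2 in the fit that left out control replicate 2 (4.14%). Members higher in SRF-null cells numbered 33 to 38 over these fits.

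Markers of other cells moved with the members on some arrays. The 7 measured markers of granulocyte-monocyte progenitors, which divide rapidly, had a median deviation of −1.06 on control replicate 1, the array where most members were lowest. On control replicates 2 and 3 it was 0.21 and 0.39, and on SRF-null replicates 1 to 3 it was 0.19, −0.33 and 0.44. Their summed normalized signal ranged from 281100 to 551300 on control and from 359500 to 548100 on SRF-null arrays, and 0 of the 7 were below a signal of 16 on any array. Control replicate 2 did not follow, since there the members were low and these markers were not. B cell precursor markers (7 measured, Pax5 below 16 on all arrays) had a median deviation of 2.25 on SRF-null replicate 3 and 0.70 on control replicate 3, the 2 arrays with the most mitotic signal, and of −0.82 to −0.15 on the others. Their summed signal was 21720 to 28910 in control and 20940 to 37830 in SRF-null cells. The 8 measured LSK markers ran the other way on these arrays, at −0.31 and −0.24, with 0.35 on control replicate 1. Of 8 T and NK cell markers 7 were higher in SRF-null cells (median difference 0.54). Cd247, Klrd1, Cd4 and Nkg7 were higher without overlap, against 5.14% of all genes, and the other 4 overlapped. Of these markers Cd3g was below 16 on all arrays and Cd3d on 5. Their summed signal was 57010 to 67300 in control and 78230 to 85870 in SRF-null cells, but Nkg7 alone made up 96.1% to 98.1% of it. Erythroid markers had 6 of 8 genes higher (median 0.02, summed signal 215500 to 254200 against 207700 to 281800, Hba-a1 below 16 on all arrays), and their median deviation was highest on SRF-null replicate 3, at 0.42. Mature myeloid markers had 6 of 7 genes higher (median 0.49, summed signal 70810 to 108000 against 91610 to 113600) and megakaryocyte markers 5 of 6 (median 0.56, 19210 to 33010 against 21810 to 56420). In the lists other than T and NK cells, 1 B cell precursor (Pax5), 1 mature myeloid (C1qa) and 1 megakaryocyte marker (Gp9) were higher without overlap. None was lower without overlap, where 5.14% of all genes were higher and 5.45% lower. Pax5 was below 16 on all arrays, so its lack of overlap carries no weight. The part of all these cells in the mitotic signal was not tested.

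**Figure D4:**
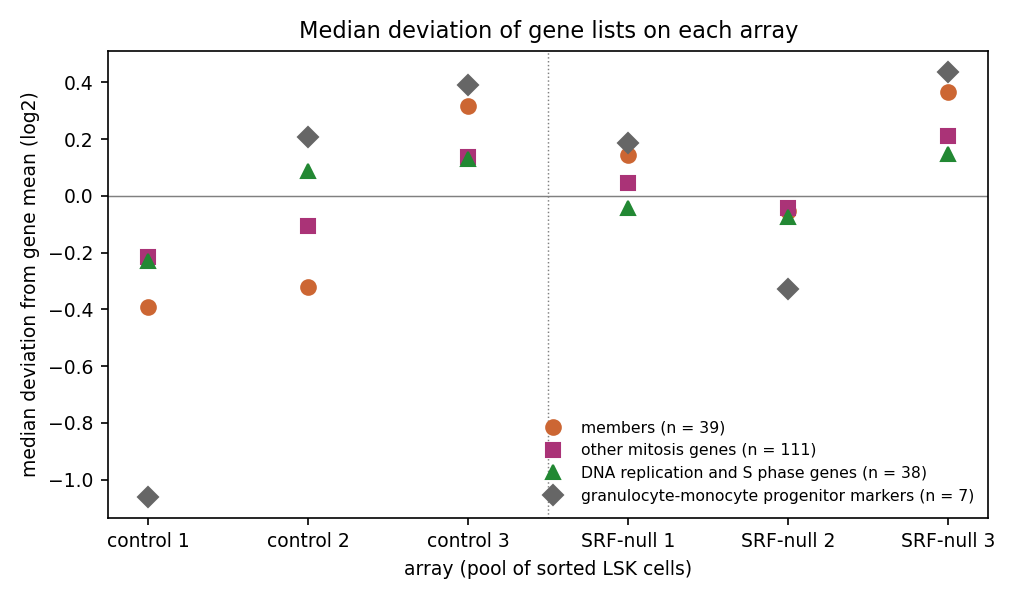
Median deviation from the gene mean in log2 signal (y axis) on each array (x axis) for the members, the other mitosis genes, DNA replication genes and granulocyte-monocyte progenitor markers. Members run from −0.39 on control replicate 1 to 0.36 on SRF-null replicate 3, and the progenitor markers are lowest on control replicate 1 at −1.06.

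Several probe sets of 1 gene gave a second reading for 25 members. Of 47 such further probe sets, 42 had the sign of the brightest probe set and 5 the opposite sign, in Anln, Aurka, Kif2c, Nek2 and Top2a. Each of these 5 was dimmer by more than 4 on the log2 scale, and that of Top2a was below a signal of 16 on all arrays. All 5 probe sets of Hmmr were higher in SRF-null cells, by 0.60 to 0.92, and both of Cdc25c, by 0.61 and 0.70. Of all 86 probe sets 80 were higher, with a median of 0.26 against 0.00 over the 45037 probe sets tested. In the fit over probe sets 6 of 86 had an unadjusted p under 0.05 and were higher, against 2.37% of all probe sets, and 15 of 86 had one in either direction with the replicate block, against 7.08% of all probe sets in that fit. Without control replicate 3, the only control high in the members, there were 28, against 4.22%. Leaving that array out itself widens the difference, so this count is no support for a difference. Of the 47 further probe sets 22 had a larger difference than the brightest one and 25 a smaller one, and their median was 0.26. The 5 of them with an unadjusted p under 0.05 were dim probe sets of Cenpe (1.09, SE 0.32), Cenpf (1.10, SE 0.45), Nusap1 (0.93, SE 0.32), Cenpa (0.85, SE 0.29) and Top2a (0.61, SE 0.21).

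Mitosis genes outside the set leaned the same way when all lists were pooled. Of 111 measured genes 86 were higher and 25 lower, with a median of 0.13, where 48.6% of all genes were higher at any size. The 111 include 15 genes of the anaphase-promoting complex and 14 regulators of mitotic transcription, which did not lean and are described below. At an unadjusted limma p under 0.05, 5 of the 111 were higher and 0 lower, against 2.91% and 2.83% of all genes. These genes were read on the same arrays as the members, and their lists were chosen with earlier results known, so the counts carry no p. All 18 further spindle and kinesin genes were higher (median 0.27), among them the kinesin gene Kifc1 (0.46, SE 0.20) and the spindle gene Ckap2l (0.41, SE 0.21). Of 15 genes of condensin and of sister chromatid cohesion 14 were higher (median 0.16). In that list Pttg1, the securin that holds separase in check, was at 15.11, 14.94 and 14.84 in control and 15.60, 15.42 and 15.29 in SRF-null cells. The genotypes did not overlap, and control replicate 3 was the lowest array here rather than a high one (difference 0.47, SE 0.14, limma adjusted p = 0.758). Of 23 further kinetochore and checkpoint genes 19 were higher (median 0.18), with the kinetochore genes Knl1 (0.46, SE 0.17) and Spc25, a partner of Nuf2 in the NDC80 complex (0.53, SE 0.20), both without overlap. Of 12 further cytokinesis genes 10 were higher (median 0.27), and Cit, the citron kinase, differed by 0.61 (SE 0.20, limma adjusted p = 0.787). Of 14 mitotic entry genes 11 were higher (median 0.12), with the CDK-activating phosphatase gene Cdc25b at 0.46 (SE 0.19) and the cyclin F gene Ccnf at 0.29 (SE 0.21). None of these genes passed adjustment over all genes.

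Among these 111 genes, 2 of the lists did not lean to 1 side. The 15 measured genes of the anaphase-promoting complex and its regulators, many of which are not tied to 1 phase of the cycle, were split into 7 higher and 8 lower, with a median of −0.01. Its subunit genes Anapc1 (−0.22, SE 0.12, lower without overlap) and Anapc13 (0.29, SE 0.18) had the lowest p. The 14 regulators of mitotic transcription were split into 7 and 7 (median 0.00), with the NF-Y subunit gene Nfyb at 0.17 (SE 0.11) and E2f4 at −0.25 (SE 0.23). Foxm1 and Mybl2, the activators best known for this program, are themselves switched on as cells divide, and they differed by 0.09 (SE 0.40) and −0.16 (SE 0.32) with wide errors; these 2 were named after their values were seen.

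Genes of DNA replication and S phase, the step before G2, were split into 20 higher and 18 lower of 38 measured, with a median of 0.00. Here 0 were higher and 1 lower at an unadjusted limma p under 0.05, against 2.91% and 2.83% of all genes. The lowest p belonged to Chaf1b, a histone chaperone subunit, at −0.28 (SE 0.11) and the replication gene Gins1 at 0.35 (SE 0.15). The median deviation of these 38 genes on control replicate 1 was −0.23, against −0.22 for other mitosis genes and −0.39 for the members. On control replicate 2 it was 0.09, against −0.11 for other mitosis genes and −0.32 for the members. Whether mitosis and S phase genes differ in their response was not tested, and the 2 sets share the same arrays. Of 14 CDK inhibitor and quiescence genes 10 were higher (median 0.04), with the antiproliferative gene Btg2 at 0.69 (SE 0.28) and the INK4 locus gene Cdkn2a at 0.27 (SE 0.12), both without overlap and neither past adjustment. Cdkn2a lay close to the floor on all arrays.

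**Figure D5:**
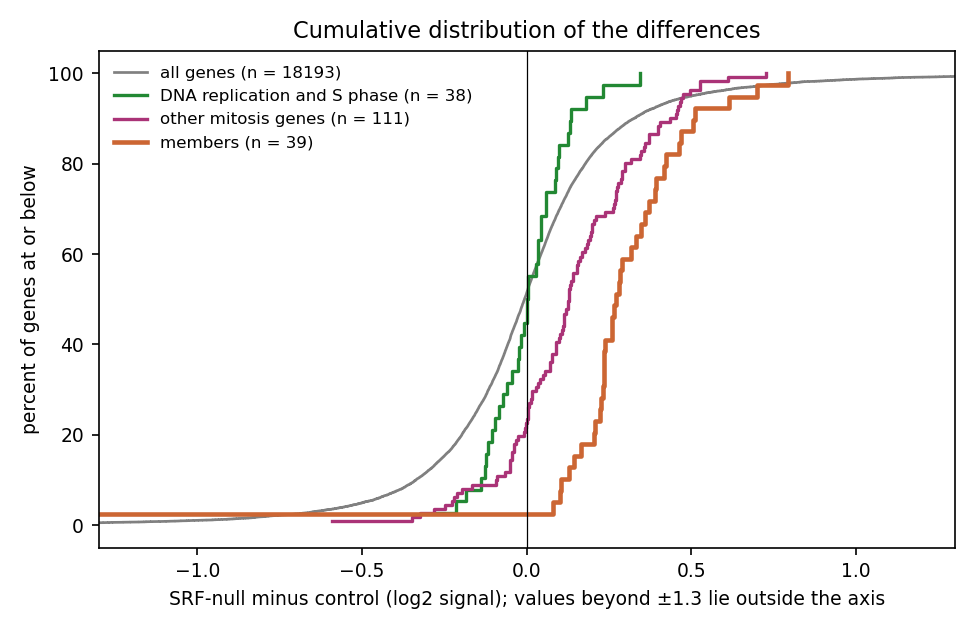
Cumulative percent of genes (y axis) at or below a given SRF-null minus control difference in log2 signal (x axis) for the 39 members, 111 other mitosis genes, 38 DNA replication and S phase genes and all 18193 genes. The medians are 0.27, 0.13, 0.00 and −0.01, and Ccnb1ip1 (−4.71) lies off the axis.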

How the data were processed

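Intensities per probe set on a linear scale were deposited for 6 arrays; the unit was read from the values, and no source used here gives the summary algorithm, background correction or scaling. Of 45101 probe sets, 64 were controls, 34945 named 1 gene in the platform annotation, 932 several and 9160 none. Signals were converted to log2(value + 16), which understates changes of dim genes, and quantile normalized. With 1 probe set per gene (the highest mean), 18193 genes were fitted with limma 3.58.1 in R 4.3.3 (genotype as the only term, both directions) with Benjamini-Hochberg adjustment over all genes. The fit was tried on simulated data in which genes varied independently and changed genes shifted by more than any of the 38 higher members here. It therefore says nothing of small differences shared by genes that vary together. No filter was applied, and precision is limited by having 3 arrays a group.

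Deviations from group means correlated by 0.198, 0.125 and 0.367 between arrays of equal number over all genes, so the numbers were taken as pairs; this hint comes from the data, since the labels name no shared litter or day. Over the members alone these were 0.19, −0.14 and −0.04, values that do not see a shift shared by all members.

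All members are named by role. Values by array are given for the 12 members with the lowest p and those without overlap, and 2 genes at most from each further list by lowest p. Values by array for Mki67 and Ube2c, and the naming of Foxm1 and Mybl2, fall outside this rule and were chosen after the values were seen. Members and lists were chosen with earlier results of these data known. Promoters were taken from RefSeq tables, with no genome used here. Figures were drawn with matplotlib 3.10.9. Alternatives covered the offset, normalization, probe set choice, a filter on dim genes, the variance model, the replicate block, each array left out, and both arrays with transcripts of 1 sex left out.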

Additional observations from a re-analysis of the deposited data

How the results depend on the processing

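Over 15 alternatives the count of members higher in SRF-null cells was 33 to 38 and the median difference 0.17 to 0.47, while 32 of 39 members kept their sign throughout. Members with an unadjusted limma p under 0.05, 2 in the fit reported, numbered 1 with an offset of 1 (5.52% of all genes in that fit) or with median centring (3.56%), 5 with the mean of all probe sets (5.16%) or with a trended and robust variance (5.69%), and 6 with the replicate block (8.12%), against 5.74% of all genes in the fit reported. Member probe sets with such a p, 6 in the fit reported, numbered 10 with a trended and robust variance (4.36% of all probe sets in that fit), 15 with the replicate block (7.08%) and 2 without both arrays of 1 sex (2.87%), against 4.39% in the fit reported. Leaving out 1 array at a time gave 0 to 19 members, where 4.14% to 8.32% of all genes had such a p. It gave 1 to 28 probe sets, where 3.16% to 7.60% of all probe sets did. The counts of 19 and 28 came without control replicate 3, the only control high in the members, whose omission itself widens the difference. Genes past the adjusted threshold numbered 0, or 1 with median centring, with a trended and robust variance or without control replicate 2, and leaving out 1 array gave 0 to 1. Members past it numbered 0 to 1, the 1 being Ccnb1ip1 without control replicate 2, its only control array at the floor. The block changed no call past the adjusted threshold.

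Signs turned for Aurka with the mean of all probe sets (−0.15), and without both arrays of 1 sex for Aurka (−0.081) and Mki67 (−0.092). With 1 array left out the range was −0.13 to 0.44 for Aurka, −0.048 to 0.87 for Nek2, −0.10 to 0.36 for Melk, −0.067 to 0.299 for Bub1, −0.032 to 0.18 for Mki67, −0.043 to 0.41 for Aurkb and −0.029 to 0.47 for Ttk. The cause of these shifts was not tested. The unit rests on values alone, and 3 arrays a group leave intervals of 1 log2 unit or more for many members.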
